A study of Homo sapiens with 12 samples.

Results

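The 6 protein kinase genes PLK2, PLK3, PIM1, PIM3, SGK1 and SIK1 were followed in serum-starved and serum-stimulated HCT116 cells, with KAP1 present or depleted. They were taken from the deposited count table by symbol, matched to its Ensembl identifiers, and are 6 of its 19901 genes. All 6 passed the filter on low counts, which 13093 genes passed in all. The cells, named HCT116 KAP1-dTAG, derive from a human colorectal carcinoma, and their own TRIM28 gene was edited so that its product KAP1 carries a degron. Their total RNA was sequenced after ribosomal RNA was removed. All 12 libraries came from 1 clone of that line (clone D5), so the tag and the clone are shared by the controls. Cells were held in serum-free medium for 48 h, received DMSO (the solvent) or dTAG (the compound that directs the tagged protein to degradation) for the last 8 h, and then did or did not receive serum for 30 min. The 4 groups of 3 libraries are named by treatment and serum: DMSO-S0 and DMSO-S30 for the solvent, and dTAG-S0 and dTAG-S30 for depletion, with S0 for no serum and S30 for the 30 min of serum. The titles of the S0 libraries read Serum_0_30, which does not say plainly that no serum was given. They were taken as such because the count columns of these libraries are marked SS, read here as serum-starved.

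Serum carries growth factors and lipids that switch on immediate early genes (IEGs), which need no new protein synthesis for their transcription. Most known IEGs encode transcription factors, but some encode kinases. For kinases of these families the amount of protein can set the activity: PIM kinases are active as soon as they are made, and several of these proteins are short-lived. PLK2 and PLK3 are polo-like kinases linked to centrosome duplication and the stress response, PIM1 and PIM3 are proviral-insertion kinases that promote survival and translation, SGK1 (serum and glucocorticoid regulated kinase) acts beside AKT downstream of PI3K and mTORC2, and SIK1 (salt-inducible kinase) is a target of LKB1 that holds CRTC coactivators and class IIa histone deacetylases in the cytoplasm. The question put to the data was which of the 6 transcripts responded to 30 min of serum, and whether KAP1 depletion changed them.

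In the hg38 coordinates of the deposited table, PLK2 (ENSG00000145632.14) lay at chr5:58453982-58460260 on the minus strand and PLK3 (ENSG00000173846.12) at chr1:44800225-44805990 on the plus strand. PIM1 (ENSG00000137193.13) lay at chr6:37170203-37175426 and PIM3 (ENSG00000198355.4) at chr22:49960513-49964080, both on the plus strand. SGK1 (ENSG00000118515.11) spanned chr6:134169246-134318112 on the minus strand, with a counted length of 148868 bp, against 3569 to 12708 bp for the others. SIK1 (ENSG00000142178.8) lay at chr21:43414483-43427189 on the minus strand. A near-identical copy, SIK1B (ENSG00000275993.2), is annotated at chr21:6111134-6123739 on the plus strand, so reads of the SIK1 type could be assigned to either row and the value of each row on its own is uncertain. In GENCODE v44, PLK3 shared 98 bp with DYNLT4 on the opposite strand, and PIM3 held MIR6821 (74 bp) on its own strand. SGK1 shared 7997 bp with a long noncoding RNA on the opposite strand and 1699 bp with the keratin pseudogene KRT8P42 on its own strand, so reads there are of uncertain origin. PLK2, PIM1 and SIK1 overlapped no annotated gene. Reads were counted over whole genes, introns included, so spliced and unspliced RNA were summed, and whether the counting used strand is not given in the sources used here.

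Sequences before the transcription start are shown for SIK1, PLK2, PLK3 and SGK1, which rose with serum, and for PIM1, which did not pass the test. PIM3, which also rose, is left out. The sequences shown hold 250 bases for SIK1 and 160 for each of the others. They were read from RefSeq promoter windows (GRCh38.p14, 250 bases before to 50 after each start), which held entries for 6 of the 6 genes, SGK1 with 3 starts. The SGK1 sequence shown is that of the third start. Bases run 5′ to 3′ along the gene and end just before the start. Capitals mark exact matches, on either strand, to the motifs searched.
SIK1, chr21:43427132-43427381, minus strand: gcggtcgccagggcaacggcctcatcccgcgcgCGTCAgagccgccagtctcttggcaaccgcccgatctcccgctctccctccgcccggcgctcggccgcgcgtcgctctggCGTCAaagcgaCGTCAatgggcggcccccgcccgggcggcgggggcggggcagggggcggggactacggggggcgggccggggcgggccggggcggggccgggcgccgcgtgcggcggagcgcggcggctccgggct
PLK2, chr5:58460087-58460246, minus strand: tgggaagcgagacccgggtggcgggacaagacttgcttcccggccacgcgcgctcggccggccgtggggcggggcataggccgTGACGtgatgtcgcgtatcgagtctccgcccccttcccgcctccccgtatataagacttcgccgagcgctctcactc
PLK3, chr1:44800217-44800376, plus strand: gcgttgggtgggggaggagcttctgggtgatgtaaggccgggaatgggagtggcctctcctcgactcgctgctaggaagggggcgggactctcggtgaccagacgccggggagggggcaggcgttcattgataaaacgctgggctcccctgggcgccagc
PIM1, chr6:37169992-37170151, plus strand: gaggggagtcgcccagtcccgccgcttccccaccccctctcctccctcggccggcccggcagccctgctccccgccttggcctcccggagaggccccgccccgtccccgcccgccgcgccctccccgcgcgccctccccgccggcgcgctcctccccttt
SGK1, chr6:134174867-134175026, minus strand: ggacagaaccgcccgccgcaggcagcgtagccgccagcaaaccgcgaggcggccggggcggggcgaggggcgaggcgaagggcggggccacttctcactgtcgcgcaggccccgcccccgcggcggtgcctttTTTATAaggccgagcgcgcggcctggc

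The core of the cAMP response element, TGACG, is a letter string found in sites of CREB and ATF factors. It matched 3 times before SIK1, at positions -217 to -213, -137 to -133 and -126 to -122 from the start, each on the strand opposite to the gene. PLK2 held 1 match, at -77 to -73 on its own strand. No match lay in the windows of PLK3, PIM1, PIM3 or SGK1, and 24.5% of all 35116 RefSeq windows of this length held at least 1. The TATA box TATAAA, held by 11.5% of all windows, matched in the 3 SGK1 windows, with 1 match each, and the ETS core CCGGAA (17.2% of all windows) had 1 match, before the second SGK1 start. There was no exact match in any of the 8 windows of the 6 genes to the full cAMP response element TGACGTCA (1.85% of all windows), the AP-1 site TGANTCA (7.71%), the FOXO site GTAAACA (3.42%), the CCAAT box (34.6%), the E-box CACGTG (7.26%) or the CArG box bound by SRF (1.29%). The full element contains the core, and these matches are descriptions of letters in short windows. The SIK1, PIM3 and PIM1 windows had 82.3%, 81.3% and 79.7% G and C, against a median of 58.7% over all windows. The windows of the first and second SGK1 starts lay below that median, at 38.0% and 43.0%. Those of PLK2, PLK3 and the third SGK1 start lay between the median and the PIM1 value. A high share of G and C was thus not common to all windows of the 6 genes.

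The libraries held 20537682 to 26278707 counts, of which 7.97% to 9.37% fell on the ERCC spike-ins. Among the colon epithelial markers, 6 of 9 passed the filter, and EPCAM was at 252 to 284 CPM (a count relative to the upper-quartile scaled total of gene counts in its library) in all libraries, while CDX1, VIL1 and LGALS4 stayed under 0.661 CPM. In both treatments 4 of the 6 (CDH1, KRT8, KRT18 and KRT19) were called higher with serum, by 0.17 to 0.38 on the log2 scale in DMSO-treated cells and by 0.29 to 0.34 in dTAG-treated cells. EPCAM and CDX2 did not pass. Of 9 markers of blood, endothelial and stromal cells, 5 passed, and their summed level was 71.0 CPM in DMSO-S0, 123 in DMSO-S30, 68.4 in dTAG-S0 and 115 in dTAG-S30. The rise of that sum followed COL1A1, which rose 5.59-fold with serum in DMSO-treated cells, from 14.7 to 81.2 CPM. Its partner COL1A2 and the stromal marker DCN were at or near 0. Most of the sum in DMSO-S0 thus came from markers other than COL1A1. RGS5 fell with serum by 0.59 on the log2 scale. The part of these markers in the serum changes was not tested. TRIM28, whose protein and not its transcript is the target of dTAG, was at -0.06 for dTAG against DMSO without serum (log2 fold change, edgeR adjusted p = 0.787) and at -0.04 with serum (0.888). This does not check the depletion. In these bulk libraries fewer cells and less RNA per cell cannot be told apart.

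SIK1 rose most with serum and PIM1 did not pass the test. In DMSO-treated cells 5 of the 6 kinases were higher at S30 than at S0, by 1.58-fold for PIM3, 1.79-fold for SGK1, 2.99-fold for PLK2, 3.07-fold for PLK3 and 20.9-fold for SIK1. Of all genes tested, 9.18% were called higher in this comparison, and 2.2% were called at 2-fold or more, as were PLK2, PLK3 and SIK1. The median log2 fold change of the 6 was 1.21, against -0.07 over all genes tested. The 6 were chosen with earlier results of these data known. The comparison with all genes therefore describes them and is no test of the set. Each call is from edgeR's quasi-likelihood test, two-sided, with Benjamini-Hochberg adjustment over all genes tested and a threshold of 0.05. The study's methods call the libraries of a condition biological replicates, and the labels do not say how they were separated (cultures or days), so the p-values measure the spread between these libraries. The share of called genes that were higher was 35.0% here, but 59.8% with TMM scaling and 66.5% with library sizes set by the spike-ins, and the 5 calls held under both.

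**Figure D1:**
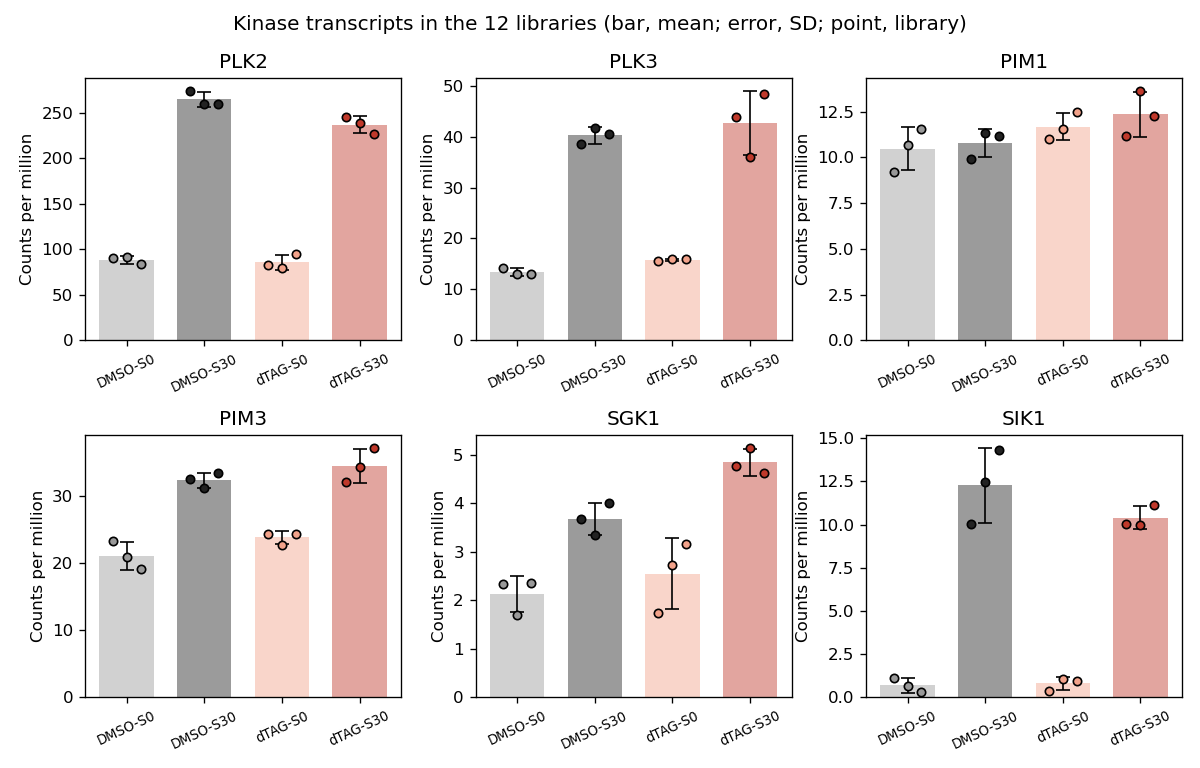
CPM (linear axes from 0, one panel per gene) of the 6 kinases in the 4 groups. Points are libraries, bars the mean and error bars the SD (n = 3). The S30 points of PLK2, PLK3, PIM3, SGK1 and SIK1 lie above the S0 points of the same treatment, and those of PIM1 overlap.

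The polo-like kinases PLK2 and PLK3 rose by similar factors. PLK2, which phosphorylates centrosomal and synaptic proteins, gave 90.4, 91.2 and 83.3 CPM in the DMSO-S0 libraries and 274, 260 and 260 CPM in DMSO-S30. The S30 libraries all stood above the S0 libraries, with a log2 fold change of 1.58 (SE 0.068, 95% interval 1.44 to 1.72, adjusted p = 1.97e-16). With dTAG the values were 82.3, 79.3 and 94.7 CPM at S0 and 245, 239 and 226 CPM at S30, again without overlap (log2 fold change 1.47, SE 0.065, adjusted p = 5.07e-16).

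PLK3, a relative of PLK2 that acts in the DNA damage and hypoxia responses, rose as well. Its DMSO-S0 libraries held 14.3, 13.1 and 13.0 CPM and its DMSO-S30 libraries 38.5, 41.7 and 40.5 CPM. The groups were well apart, with a log2 fold change of 1.62 (SE 0.095, 95% interval 1.42 to 1.81, adjusted p = 2.13e-13). After dTAG it went from 15.61, 15.98 and 15.95 CPM to 43.9, 35.9 and 48.3 CPM (log2 fold change 1.41, SE 0.090, adjusted p = 1.20e-12), and the dTAG-S30 libraries were the more scattered.

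The PIM kinases, which phosphorylate BAD and regulators of cap-dependent translation, split. PIM3 gave 23.2, 20.9 and 19.1 CPM in DMSO-S0 and 32.5, 31.1 and 33.4 CPM in DMSO-S30, a log2 fold change of 0.66 (SE 0.080, 95% interval 0.50 to 0.83, adjusted p = 3.69e-07). All 3 S30 libraries exceeded all 3 S0 libraries. In dTAG-treated cells PIM3 went from 24.4, 22.7 and 24.4 CPM to 32.1, 34.3 and 37.2 CPM, also without overlap (log2 fold change 0.51, SE 0.076, adjusted p = 1.31e-05).

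PIM1, a classical target of cytokine and STAT signalling, was at 9.22, 10.7 and 11.5 CPM in DMSO-S0 and 9.92, 11.3 and 11.2 CPM in DMSO-S30. The groups overlapped, and the interval of the change with serum ran from 0.868-fold to 1.21-fold (log2 fold change 0.04, SE 0.117, adjusted p = 0.858). With dTAG the values were 11.002, 11.56 and 12.49 CPM at S0 and 11.2, 13.6 and 12.3 CPM at S30. These overlapped too, with a log2 fold change of 0.09 (SE 0.1102, adjusted p = 0.622) and an interval of 0.907-fold to 1.24-fold. PIM1 had 174 to 305 counts per library.

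SGK1, which phosphorylates NEDD4L and thereby keeps sodium channels at the cell surface, was the least counted kinase once serum was given. It gave 2.33, 1.70 and 2.35 CPM in DMSO-S0 (37 to 48 counts) and 3.68, 3.35 and 4.01 CPM in DMSO-S30 (75 to 83 counts). Every S30 library was higher, and the log2 fold change was 0.84 (SE 0.213, 95% interval 0.40 to 1.28, adjusted p = 0.00450). SGK1 shares bases with the pseudogene KRT8P42. KRT8, at 419 CPM in DMSO-S0 and 506 CPM in DMSO-S30, was also called higher with serum. Whether keratin reads take part in the SGK1 values was not tested. The dTAG libraries ran from 1.74, 2.73 and 3.16 CPM to 4.76, 5.14 and 4.62 CPM (log2 fold change 0.89, SE 0.189, adjusted p = 0.000988), again without overlap. When each library was left out in turn, the adjusted p for DMSO-treated cells reached 0.0483 at most, the closest any of the 5 calls came to the threshold.

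SIK1 was nearly silent without serum. The DMSO-S0 libraries held 21, 14 and 6 counts (1.11, 0.642 and 0.294 CPM), and the DMSO-S30 libraries held 204, 283 and 297 counts (10.01, 12.47 and 14.34 CPM). The log2 fold change was 4.39 (SE 0.228, 95% interval 3.92 to 4.85, adjusted p = 1.26e-14), which made SIK1 the 22nd gene by rise among the 13093 tested. In dTAG-treated cells SIK1 went from 8, 25 and 23 counts (0.376, 1.08 and 0.958 CPM) to 224, 223 and 246 counts (10.1, 9.97 and 11.1 CPM). This was a log2 fold change of 3.55 (SE 0.212, 95% interval 3.12 to 3.99, adjusted p = 3.02e-13).

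The row of SIK1B moved with that of SIK1. It held 8, 17 and 8 counts in DMSO-S0 and 234, 271 and 312 counts in DMSO-S30, a log2 fold change of 4.58 (SE 0.247, adjusted p = 3.04e-14). SIK1 took 49.0% of the counts of the 2 rows in DMSO-S30 and 50.3% in dTAG-S30, so reads were divided almost evenly between the copies. Without serum the shares were 55.4% in DMSO-S0 and 55.5% in dTAG-S0, over 74 and 101 counts and with 34.8% to 80.65% in single libraries. With the 2 rows summed, an alternative added after the data were seen, the level went from 1.22 ± 0.461 CPM (SD, n = 3) in DMSO-S0 to 25.1 ± 4.002 CPM in DMSO-S30, and the log2 fold change was 4.48 (SE 0.176). The summed dTAG groups were at 1.46 ± 0.449 and 20.7 ± 1.04 CPM (log2 fold change 3.74, SE 0.165).

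**Figure D2:**
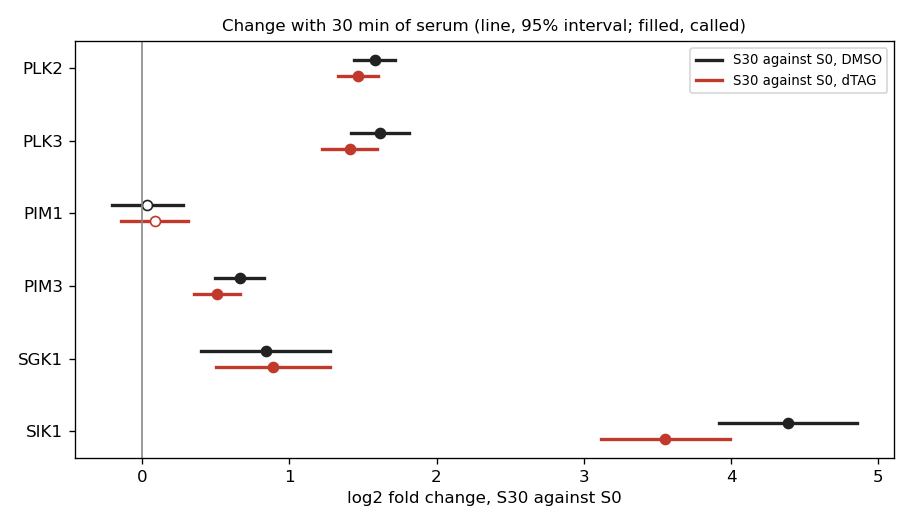
Log2 fold change from S0 to S30 of the 6 kinases, in DMSO-treated (black) and dTAG-treated (red) cells, with 95% intervals from the edgeR fit. Filled points passed the test. SIK1 stands at 4.39 and 3.55, PLK2 and PLK3 between 1.41 and 1.62, SGK1 and PIM3 between 0.51 and 0.89, and the PIM1 intervals include 0.

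In dTAG-treated cells the same 5 kinases were called higher with serum, where 9.09% of all genes tested were, and PLK2, PLK3 and SIK1 were again at 2-fold or more (1.84% of genes). Here 37.2% of the called genes were higher, against 61.6% with TMM scaling and 62.5% with spike-in library sizes. The median over the 6 was 1.15, against -0.06 over all genes. This too is a description, since the 6 were chosen with earlier results known. Both serum comparisons put SIK1 first and PIM1 last.

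Levels of different genes were set beside each other only per kilobase. Per kilobase of counted gene length, the DMSO-S0 levels were 14.1 ± 0.695 CPM per kb for PLK2 (SD, n = 3), 5.90 ± 0.574 for PIM3, 2.33 ± 0.125 for PLK3, 2.01 ± 0.223 for PIM1, 0.0538 ± 0.0323 for SIK1 and 0.0143 ± 0.00251 for SGK1. The ranges of neighbours in this order did not overlap. The closest were PLK3 (2.25 to 2.47) and PIM1 (1.77 to 2.21), and no test was made between genes. With serum the order was the same, at 42.1, 9.06, 6.98, 2.07, 0.966 and 0.0247 CPM per kb in DMSO-S30. PLK3 thus drew near PIM3 and away from PIM1 after serum.

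Most of the SGK1 span is intron in GENCODE v44, where its exons join to 9962 bp, so the order was taken again per kilobase of exon length. The counts stayed those of whole genes, introns included. These values therefore still hold intron reads and are not levels of exon reads alone, which matters most for SGK1. Then DMSO-S0 held 19.0 for PLK2, 9.59 for PIM3, 4.04 for PLK3, 3.46 for PIM1, 0.214 ± 0.0375 for SGK1 and 0.131 ± 0.0789 CPM per kb for SIK1. SGK1 and SIK1 changed places on this scale, and their libraries overlapped. In DMSO-S30 the values were 56.9, 14.7, 12.1, 3.56, 0.369 and 2.36, with SIK1 above SGK1. The place of SIK1 depends on the reads in the SIK1B row. With both rows summed over the SIK1 exon length the level was 0.233 ± 0.0885 CPM per kb in DMSO-S0, above the SGK1 mean and overlapping its libraries, and 4.82 ± 0.768 in DMSO-S30, above PIM1. On this scale of whole-gene counts over exon length, PLK2 gained 37.9 CPM per kb with serum, PLK3 8.06, PIM3 5.13, SIK1 2.22, SGK1 0.156 and PIM1 0.105. The gene with the largest fold change was therefore not the one with the largest gain in level.

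KAP1 depletion gave no call among the 6 kinases. These comparisons share their libraries with the serum comparisons. Without serum 0 of 6 passed the edgeR test, where 1.31% of all genes tested did, and with serum 0 of 6 passed, where 1.23% did. At an unadjusted p under 0.05 there were 2 of 6 in each comparison, PLK3 and PIM3 without serum (11.7% of all genes tested) and PLK2 and SIK1 with serum (10.4%). DESeq2 also called 0 of 6 in both. The libraries of DMSO and dTAG did not overlap for 1 of the 6 without serum and for 2 with serum. The share of all genes tested that separated in this way was not taken, so these separations are descriptions only. Of the genes called without serum, 65.5% were higher after dTAG, and 80.3% with spike-in library sizes or 52.7% with no count filter.

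PLK2 at S30 was lower in all 3 dTAG libraries (245, 239 and 226 CPM) than in all 3 DMSO libraries (274, 260 and 260 CPM). The log2 fold change was -0.16 (SE 0.064, 95% interval -0.29 to -0.03), with an unadjusted p of 0.0197 and an adjusted p of 0.332 from edgeR. Without serum PLK2 overlapped between DMSO and dTAG (log2 fold change -0.05, SE 0.067, adjusted p = 0.843). PLK3 without serum was higher in all 3 dTAG libraries (15.61 to 15.98 CPM) than in the DMSO libraries (13.0 to 14.3 CPM), with a log2 fold change of 0.26 (SE 0.0998, adjusted p = 0.261). With serum its libraries overlapped, at a log2 fold change of 0.05 (SE 0.085, adjusted p = 0.887).

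SIK1 at S30 gave 10.1, 9.97 and 11.1 CPM with dTAG and 10.01, 12.47 and 14.34 CPM with DMSO, so the groups overlapped. Its log2 fold change was -0.41 (SE 0.149, 95% interval -0.71 to -0.10), with an unadjusted p of 0.0111 and an adjusted p of 0.259. Without serum it was 0.42 (SE 0.354, adjusted p = 0.700), on 8 to 25 counts in the dTAG libraries and 6 to 21 in the DMSO libraries. Summing SIK1 and SIK1B gave -0.38 with serum (SE 0.119, adjusted p = 0.145), which also did not pass.

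SGK1 at S30 was higher in all 3 dTAG libraries (4.62 to 5.14 CPM) than in the DMSO libraries (3.35 to 4.01 CPM), with a log2 fold change of 0.35 (SE 0.187, adjusted p = 0.533) and an interval from 0.978-fold to 1.67-fold. Without serum it overlapped (0.30, SE 0.217, adjusted p = 0.639). PIM1 overlapped in both comparisons, at 0.15 without serum (log2 fold change, adjusted p = 0.650) and 0.20 with serum (adjusted p = 0.572). PIM3 did as well, at 0.21 without serum (adjusted p = 0.264) and 0.05 with serum (adjusted p = 0.880).

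**Figure D3:**
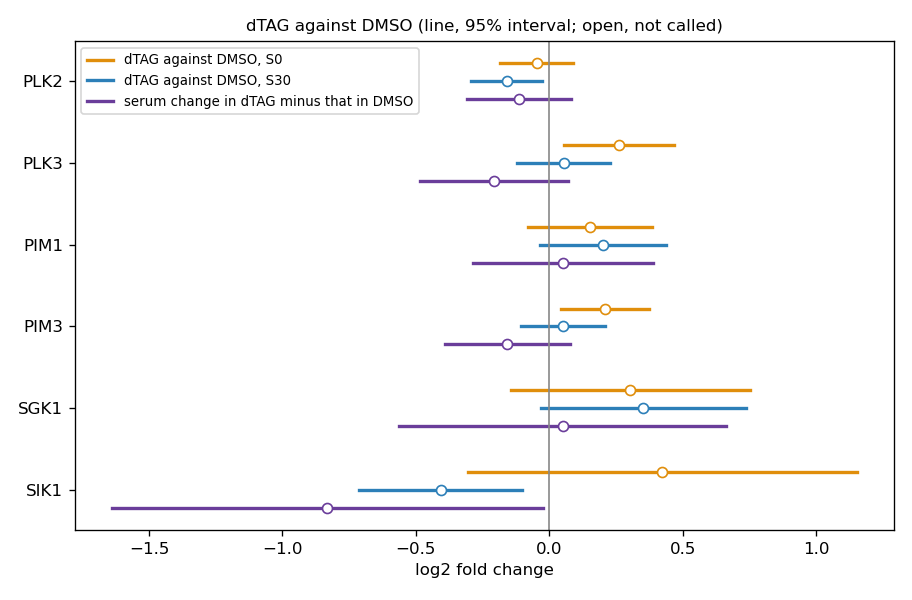
Log2 fold changes for dTAG against DMSO at S0 (orange) and S30 (blue), and the serum change in dTAG minus that in DMSO (purple), with 95% intervals from edgeR. All points are open, since 0 of 6 kinases passed in any of the 3 comparisons. The widest intervals are those of SIK1 and SGK1, the least counted genes at S0.

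The difference between the serum changes was tested directly as an interaction. None of the 6 passed (0.0382% of all genes tested did, 5 genes), and every member had an adjusted p of 0.9999, the lowest unadjusted p being 0.0441 for SIK1. It was the 1 member with an unadjusted p under 0.05, as were 3.16% of all genes tested. The SIK1 difference, the serum change in dTAG minus that in DMSO, was -0.83 (SE 0.393, 95% interval -1.64 to -0.02), and with SIK1B summed it was -0.74 (SE 0.297, unadjusted p = 0.0201). For PLK2 it was -0.11 (95% interval -0.31 to 0.08), for PLK3 -0.21 (-0.49 to 0.07) and for PIM3 -0.16 (-0.39 to 0.08). PIM1 and SGK1 both came to 0.05, with intervals from -0.29 to 0.39 and from -0.56 to 0.66. DESeq2 also called 0 of 6.

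Relatives of the 6 kinases were taken from the same 4 families. SIK2 and SIK3 rose with SIK1, though by far less. SIK2 went from 103 ± 2.58 CPM (SD, n = 3) in DMSO-S0 to 147 ± 4.05 in DMSO-S30, a log2 fold change of 0.52 (SE 0.060, adjusted p = 1.55e-07), and SIK3 from 90.4 to 128 CPM, a log2 fold change of 0.48 (SE 0.066, adjusted p = 2.78e-06). Both rose with dTAG as well, by 0.47 and 0.53. SGK3, an endosomal relative of SGK1, fell with serum by 0.29 on the log2 scale in DMSO-treated cells (SE 0.069, adjusted p = 0.00277), a call not kept with spike-in library sizes (adjusted p = 0.142). After dTAG it fell by 0.22 (adjusted p = 0.0174), a call not kept with TMM scaling (0.0727), spike-in library sizes (0.233), DESeq2 (0.104), or without dTAG-S0 replicate 2 (0.112) or dTAG-S30 replicate 2 (0.0819).

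The other relatives did not pass. PLK1, the mitotic polo-like kinase, had a log2 fold change with serum of -0.20 in DMSO-treated cells (SE 0.082, adjusted p = 0.0731), and did pass without DMSO-S0 replicate 3 (0.0349), DMSO-S30 replicate 1 (0.0143) or dTAG-S30 replicate 1 (0.0373), with upper-quartile scaling and no spike-in factor (0.0284), or with the 2 groups fitted alone (0.0345). PLK4, the centriole kinase, was at -0.02, PIM2 at -0.12 and SGK2 at 0.03 (adjusted p = 0.870, 0.493 and 0.937). PLK5 did not reach the count filter, with at most 6 counts in a library. So among the 8 tested relatives 3 were higher (SIK1B, SIK2, SIK3) and 1 was lower (SGK3) with serum in DMSO-treated cells, and 0 passed in either dTAG comparison or in the interaction. The SIK1B row may hold reads of SIK1, so it cannot be counted as a rise apart from that of SIK1.

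**Figure D4:**
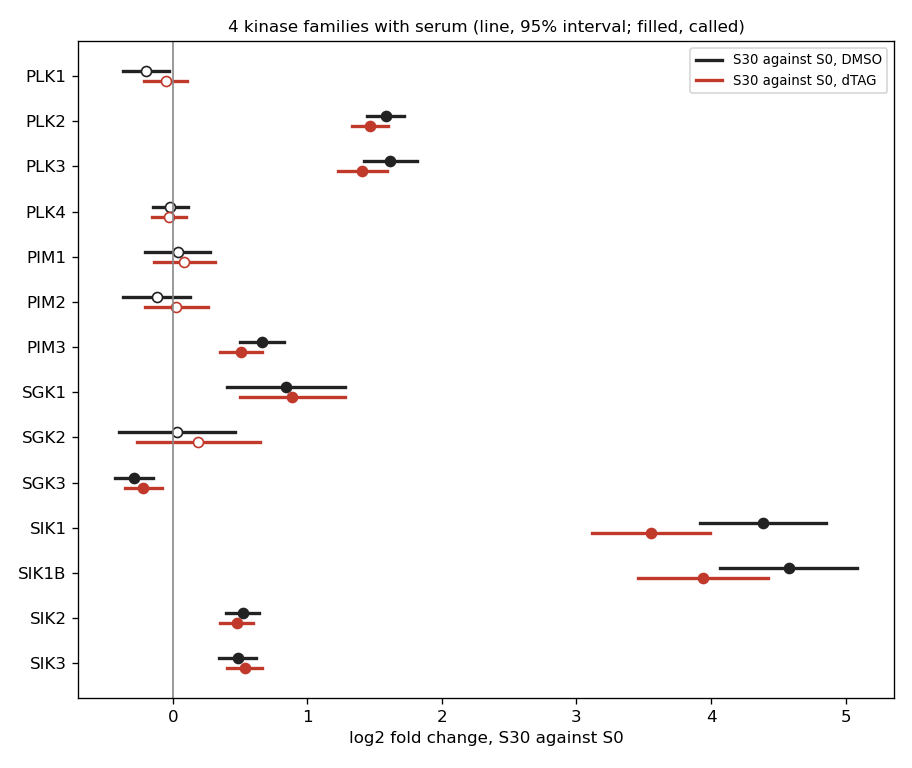
Log2 fold change from S0 to S30 for the tested PLK, PIM, SGK and SIK family genes, in DMSO-treated (black) and dTAG-treated (red) cells, with 95% intervals from edgeR and filled points for calls. Every tested SIK gene lies to the right of 0, while 1 of 3 PIM genes (PIM3), 1 of 3 SGK genes (SGK1) and 2 of 4 PLK genes (PLK2, PLK3) do so with a call.

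The 6 kinases were set among a list of protein kinase genes, 423 of which were tested. The SIK1B row (log2 fold change 4.58, against 4.39 for SIK1) may hold the same reads. It is not in that list, so the ranks and counts below leave it out. With serum in DMSO-treated cells 47 were higher and 72 were lower, and 15 were higher by 2-fold or more. Over all genes tested, 9.18% were higher, 17.1% were lower and 2.2% were higher by 2-fold or more. SIK1 ranked 1st of the 423, PLK3 8th, PLK2 10th, SGK1 16th, PIM3 22nd and PIM1 122nd. Next to SIK1 in this list stood MUSK, a muscle receptor kinase (log2 fold change 3.61, adjusted p = 5.57e-05). It had only 1 to 2 counts per library in DMSO-S0 and 12 to 29 in DMSO-S30. MUSK reached 10 counts only in S30 libraries, so it passed the filter through the groups where it was high. NUAK2, like the SIKs an AMPK-related kinase activated by LKB1, came next and went from 5.31 to 59.8 CPM (3.50, adjusted p = 1.44e-19). MAP2K3, the kinase above p38, rose from 46.2 to 184 CPM (2.01), MAP3K8, which acts above ERK, from 5.16 to 18.6 CPM (1.92), and MAP3K14, the NF-kappaB inducing kinase, from 48.9 to 181 CPM (1.87).

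The 3 largest called falls in DMSO-treated cells were all under 2-fold. DYRK4 fell with serum by 0.81, DYRK1B by 0.60 and CLK4, a kinase of splicing factors, by 0.59 on the log2 scale in DMSO-treated cells (adjusted p = 0.000386, 0.00128 and 1.17e-06). After dTAG, 43 of the 423 were higher and 41 lower with serum, with 15 higher and 1 lower by 2-fold or more, where 9.09% of all genes tested were higher and 15.4% lower. The one lower by 2-fold or more was TEK, an endothelial receptor kinase, named after its values were seen. It was near the count filter, at 0.710 CPM in dTAG-S0 and 0.284 CPM in dTAG-S30 (log2 fold change -1.35, SE 0.473, adjusted p = 0.0382). All 5 risers named here rose with dTAG too, with log2 fold changes from 1.57 for MAP3K8 to 3.17 for MUSK.

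**Figure D5:**
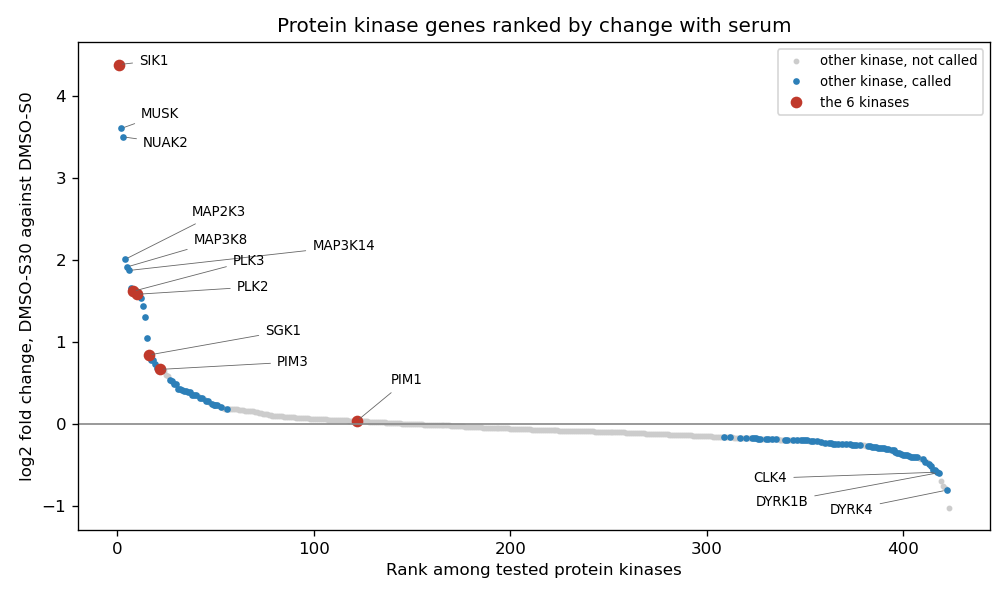
Log2 fold change from DMSO-S0 to DMSO-S30 of 423 tested protein kinase genes, SIK1B (4.58) not among them, ranked from the largest rise to the largest fall. Blue points passed the test, grey points did not, and the 6 kinases are in red. Among the genes plotted SIK1 ranks first at 4.39, PLK3 and PLK2 lie among the 15 called higher at 2-fold or more, and PIM1 lies on the flat part at rank 122.

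Lists of genes that act with these kinases are described by their counts, beside 9.18% higher and 17.1% lower over all genes tested in DMSO-treated cells and a median of -0.07. In the SIK list (LKB1 complex, CRTC coactivators, class IIa deacetylases and cAMP signalling) 3 of 16 genes were higher and 2 were lower with serum in DMSO-treated cells, with a median of -0.06. HDAC5, a class IIa deacetylase and SIK substrate, rose by 0.79 (SE 0.069, adjusted p = 6.69e-10), from 50.9 to 87.0 CPM. STRADB, a partner of LKB1, fell by 0.38 (SE 0.109, adjusted p = 0.0110), a call that ended with spike-in library sizes (0.0697), DESeq2 (0.0518), or without DMSO-S0 replicate 2 (0.0743) or DMSO-S30 replicate 2 (0.0502).

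In the SGK list (mTORC2, PDPK1, NEDD4 ligases, NDRG and FOXO substrates, glucocorticoid signalling) 4 of 16 tested genes were higher and 0 lower, with a median of -0.01. TSC22D3, the glucocorticoid-induced leucine zipper protein, rose from 5.67 to 15.4 CPM (log2 fold change 1.41, SE 0.119, adjusted p = 4.44e-10). The transcript of NDRG1, an SGK1 substrate, rose from 106 to 153 CPM (0.53, SE 0.069, adjusted p = 1.58e-06), and kinase activity was not measured. TSC22D3 was also the only gene of these pathway lists called between dTAG and DMSO, higher with dTAG at S30 (0.41, SE 0.103, adjusted p = 0.0430), and that call was lost in 10 of 21 alternatives, with adjusted p from 0.00572 to 0.256. The libraries whose removal ended it were all 3 of DMSO-S30 (0.0674 to 0.227), all 3 of dTAG-S30 (0.0859 to 0.126), DMSO-S0 replicate 3 (0.0776) and dTAG-S0 replicate 3 (0.0525). The call also ended with spike-in library sizes (0.256) and with the replicate number as a block (0.0592).

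In the PIM list (JAK and STAT factors, SOCS feedback, PIM substrates) 6 of 15 tested genes were higher and 0 lower, with a median of 0.11. SOCS3, a feedback inhibitor of JAK signalling, rose from 17.0 to 28.2 CPM (log2 fold change 0.74, SE 0.098, adjusted p = 1.54e-06). SOCS1 rose from 3.04 to 4.35 CPM (0.63, SE 0.190, adjusted p = 0.0157), but its call ended without DMSO-S0 replicate 2 (0.0544) or 3 (0.0677) and without DMSO-S30 replicate 1 (0.0509) or 3 (0.0867).

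Partners of PLK2 and PLK3 gave 0 higher and 3 lower of 11, with a median of -0.07. CHEK2, a checkpoint kinase, fell by 0.35 (SE 0.073, adjusted p = 0.000698). CDC25C, a phosphatase of mitotic entry, fell by 0.22 (SE 0.077, adjusted p = 0.0373), but its call ended with TMM scaling (0.176), spike-in library sizes (0.320), DESeq2 (0.210), or without DMSO-S0 replicate 2 (0.299), DMSO-S30 replicate 1 (0.140) or DMSO-S30 replicate 3 (0.160).

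Kinases that carry the growth factor signal gave 4 higher and 6 lower of 34, with a median of -0.02. MAP2K3 led them, followed by MAPKAPK2, a p38 substrate kinase, which rose from 66.8 to 115 CPM (log2 fold change 0.78, SE 0.063, adjusted p = 1.45e-10). Of 8 transcription factors of the serum response 3 were higher and 0 lower. SRF, which binds the serum response element, rose from 31.8 to 211 CPM (2.73, SE 0.075, adjusted p = 9.25e-21). ELK1, an ETS partner of SRF, rose by 0.21 (SE 0.070, adjusted p = 0.0314), a call that ended with spike-in library sizes (0.0635), or without DMSO-S0 replicate 2 (0.151), DMSO-S30 replicate 1 (0.140) or DMSO-S30 replicate 2 (0.0618).

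In dTAG-treated cells, where 9.09% of all genes tested were higher and 15.4% lower with serum, the counts higher and lower were 1 and 3 for the SIK list, 3 and 1 for the SGK list, 5 and 1 for the PIM list, 0 and 3 for the PLK2 and PLK3 partners, 3 and 3 for the growth factor kinases, and 1 and 0 for the transcription factors. SOCS1 (log2 fold change 0.35, adjusted p = 0.170) and ELK1 (0.16, adjusted p = 0.0863) did not pass there.

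The genes whose log2 CPM followed each kinase most closely over the 12 libraries are given as a description, since the points share 4 groups and the serum difference. PLK2 was matched by THBS1 (Pearson r = 0.997) and MCL1 (0.997), PLK3 by PARN (0.994) and GPRC5A (0.994), and PIM3 by YRDC (0.988) and FOXC1 (0.988). SIK1 was matched by DELEC1 (0.991) and GTPBP1 (0.988), and SGK1 by LIPH (0.939) and EOGT (0.937). The closest genes to PIM1 were TCF7 (0.881) and HK2 (0.855). Among the 6 kinases, the 10 pairs without PIM1 had r between 0.830 and 0.972, and the 5 pairs with PIM1 had r between 0.168 and 0.467.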

How the data were processed

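Total RNA of HCT116 KAP1-dTAG cells was depleted of ribosomal RNA after ERCC spike-in RNA was added, and 12 libraries (4 groups of 3) were sequenced. Per the labels, reads were checked with FastQC 0.11.8 and trimmed with Trim Galore 0.6.4. The authors mapped them to hg38 with STAR and counted them with featureCounts (Subread 1.6.3) over whole protein-coding genes, and the deposited values are raw counts, not normalized, for 19901 genes and 92 ERCC transcripts. Strand and multiple-mapping settings are not given in the sources used here.

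Symbols were matched for 19802 gene identifiers. The test was limited to genes that reached 10 counts in 6 or more libraries of 12, which left 13093 genes and 69 ERCC transcripts. The counts were fitted with edgeR 4.0.16 in R 4.3.3, with upper-quartile scaling, 1 factor of unwanted variation from the spike-ins (the RUVg calculation), 1 coefficient per group and a quasi-likelihood F-test with Benjamini-Hochberg adjustment over all genes tested. Each SE was derived from that test, as the absolute log2 fold change divided by the square root of its F statistic. The 95% intervals were built from these SEs with the t distribution. They are approximate, above all for large changes on few counts such as SIK1. CPM is the count divided by the upper-quartile scaled library total. The SEs and intervals use 1 spread per gene, estimated over all 12 libraries. They do not give the scatter of the 3 libraries of a single group. In simulated counts for the comparison of serum with none in DMSO-treated cells (13046 genes), 50 of 50 genes changed 1.5-fold were recovered. The changed genes were drawn from those with a mean of 50 counts or more, and all genes were given the same spread. This recovery therefore does not cover genes of fewer counts or greater spread, or smaller changes. Of 19802 starts in the table, 11092 equalled the GENCODE v44 start after adding 1 base and 371 without it, so starts were read as counted from 0 and printed with 1 added. Other gene bounds differ from GENCODE v44, those of PLK3, PIM1, PIM3 and SGK1 among them, and are printed as the table gives them. Labels number replicates 1 to 3 in each group without saying that a number marks a shared batch, so no block was used. Alternatives were another scaling or test (DESeq2 1.42.0), no filter, 2 or no spike-in factors, the replicate block, only the groups compared, and leaving out each library.

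The 6 kinases and all gene lists were chosen with earlier results of these data known. Genes named beside the 6 kinases were every tested family relative, the 2 called genes of each other list with the largest change with serum in DMSO-treated cells, the 5 largest called rises and 3 largest called falls of the other protein kinases, the 2 genes most like each kinase, and TRIM28. COL1A1, RGS5 and other cell type markers come from a fixed marker list.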

Additional observations from a re-analysis of the deposited data

How the results depend on the processing

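The counts of kinases called (5, 5, 0, 0 and 0 of the 6) did not change under any alternative run. Values that changed sign were all of results that had not passed. On the log2 scale, PLK4 with serum in DMSO-treated cells became 0.0574 with TMM scaling, 0.0530 with spike-in library sizes, 0.0453 with DESeq2 and 0.0031 with no count filter, and in dTAG-treated cells 0.0332, 0.0092 and 0.0273 with the first 3 of these. PLK1 in dTAG-treated cells became 0.0265 with TMM scaling, 0.0055 with 2 spike-in factors, 0.00032 with DESeq2, 0.0481 with no filter and 0.0126 with only the groups compared. Leaving out each library in turn moved PIM1 with serum in DMSO-treated cells between -0.0115 and 0.12, PLK2 without serum between -0.13 and 0.0059, and with serum PIM3 between -0.0099 and 0.10, PLK3 between -0.0281 and 0.16 and TRIM28 between -0.0930 and 0.0307, these for dTAG against DMSO. The interaction moved between -0.0506 and 0.16 for PIM1 and between -0.17 and 0.25 for SGK1. With serum, relatives moved between -0.0939 and 0.0550 (PLK4) and between -0.23 and 0.19 (SGK2) in DMSO-treated cells, and between -0.11 and 0.0086 (PLK1) and between -0.0619 and 0.12 (PIM2) in dTAG-treated cells.

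The number of all genes called moved more. In the order serum with DMSO, serum with dTAG, dTAG without serum, dTAG with serum and interaction, it was 3439, 3203, 171, 161 and 5. Spike-in library sizes gave 1766, 1646, 76, 66 and 3. For the last 3, the likelihood ratio test gave 287, 266 and 10, and no filter gave 275, 406 and 29. The interaction had 9 with 2 spike-in factors and 11 with DESeq2. The cause of these shifts was not tested. Fitting only the groups compared gave no interaction value, since that test needs all 4 groups. Without 1 library the first 2 counts were 2473 to 3719 and 2137 to 3974, and the last 3 were 67 to 272, 95 to 257 and 4 to 8. The replicate block gave 3513, 3279, 173, 167 and 7 and changed no call of the 6 kinases, but ended the TSC22D3 call for dTAG at S30 (adjusted p = 0.0592). Same-numbered libraries of different groups did not deviate together (r from -0.15 to 0.14 over 18 pairs, 1 of them over 0.1), and 5 of 12 libraries correlated best with their own number. Depth limits SIK1 without serum (6 to 25 counts) and SGK1 (37 to 115 counts) most.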
